A study of Mus musculus with 9 samples.

Results

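Integrins and the proteins of focal adhesions were followed in 9 RNA libraries of engineered 3D skeletal muscle. The 37 genes were taken by symbol from a fixed list, out of 40879 symbols in each count file: 12 integrin alpha subunits, 7 beta subunits, the ligand fibronectin (Fn1) and 17 cytoplasmic proteins that join integrins to actin. All 37 symbols were present, 35 had a count in some library, and 32 passed the filter on low counts and were tested. The constructs held C2C12 cells, a mouse myoblast line labelled wild type, embedded in extracellular matrix prepared from muscle tissue. A growth phase came first, followed by a longer phase in differentiation medium with equine serum. Each phase was listed with the same number of days for all 9 libraries. Normal constructs (3 libraries, 0 Gy) were not irradiated and shared dishes with constructs of their own kind. Irradiated constructs (3 libraries), kept in dishes in the same way, were exposed once to X-rays, at 20 Gy, to induce senescence, which the series abbreviates SnC. Cocultured constructs (3 libraries, SnC-Co) were themselves not irradiated (0 Gy) but shared a dish with an irradiated construct, and only the unirradiated construct was sequenced. All groups share the cell line, the matrix and the medium, and C2C12 is a single established line, so no other genetic background was sampled.

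Integrins are heterodimers of an alpha and a beta chain that bind matrix proteins outside the cell. The alpha chain largely sets the ligand, and the beta 1 chain pairs with most of the alpha chains found in muscle. Talin and kindlin bind the beta tail and activate the receptor, vinculin, alpha-actinin and filamin tie it to actin, and the ILK complex and focal adhesion kinase scaffold it to signalling. In muscle, alpha 7 beta 1 is the main laminin receptor of myotubes and their tendon ends, while alpha 5 beta 1 on myoblasts binds fibronectin.

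The counts of a library summed to 4840993 to 6607557 for normal, 6485655 to 8290468 for irradiated and 7506605 to 8035763 for cocultured constructs. Reads came from the 3' end of transcripts, so splice forms such as alpha 7A and 7B or beta 1D were not separated and levels are not compared between genes. Some libraries stood apart. Normalised CPM are counts relative to library size, scaled by TMM factors. Genes averaging 20 to 50 normalised CPM over the normal and cocultured libraries were taken. Of these, 20.5% and 17.1% had no count in irradiated 2 and irradiated 3, and 5.23% in irradiated 1. The share was 0.0675% to 3.54% in the normal and cocultured libraries. The irradiated libraries had no part in choosing these genes, so zeros are likelier there by the choice alone. Mitochondrial transcripts took 29.7% of counts in normal 3 and 21.6% in irradiated 1, against 5.76% to 13.4% elsewhere. The summed level of the 8 skeletal muscle markers, all detected in every library, was 47436 normalised CPM in normal 3 and 28104 in irradiated 1, against 2954 to 5528 elsewhere. Most of it was Acta1 (33319 in normal 3, 18614 in irradiated 1) and Ckm (12005 and 7258), and Des was also highest there (1546 and 1185). The markers did not all move together, as Mymk was lowest of all libraries in normal 3 (68.4) and Myh3 in irradiated 1 (60.5). Gm26917, a long noncoding RNA, took 23.9% and 27.4% of counts in normal 1 and normal 2, 9.47% in normal 3 and 12.0% in irradiated 1, against 3.38% to 5.28% elsewhere, which enters any scaling by library totals. The summed level of 4 macrophage and leukocyte markers was 8.01 to 37.2 normalised CPM in normal, 0 to 17.9 in irradiated and 0 to 0.107 in cocultured libraries. Of these, Csf1r reached 37.2 in normal 3 and had no count in cocultured libraries, and Ptprc, which defines leukocytes, had no count in 8 of 9 libraries. Pecam1, which defines endothelium, had counts only in irradiated 1, at 1.92 normalised CPM. The summed level of 4 endothelial markers was at most 27.6 normalised CPM in normal, 36.0 in irradiated and 8.04 in cocultured libraries. The 3 smooth muscle markers summed to 244 to 542 normalised CPM, mostly from Acta2 (243 to 529). Myh11 was at 53.4 in normal 3 and at most 13.2 elsewhere. The 3 Schwann cell markers summed to at most 31.2, in normal 3. The 7 leukocyte and platelet integrins summed to between 0 and 25.1 normalised CPM, the highest in irradiated 1. Of these, Itga2b was at 16.8 and 16.3 in irradiated 1 and irradiated 2, Itgal at 7.88 in irradiated 1 and Itgam at 10.4 in normal 3, while Itgb2 stayed between 0 and 0.339. The part of these markers in the results was not tested. The fibroblast marker Dcn was high in all 9 libraries, from 4731 to 10960 normalised CPM, while Thy1 lay between 0 and 8.41. The other fibroblast markers listed were Col1a1 (51.9 to 581), Pdgfra (21.6 to 67.9) and Lum (10.2 to 43.4). In bulk RNA, fewer cells of a type and less RNA per cell cannot be told apart.

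In irradiated against normal constructs, most of the adhesion genes had lower estimates, but none passed the test across all genes. Of 32 tested genes, 23 had a negative and 9 a positive log2 fold change, where 6973 of all 11980 genes tested were negative. The median was -0.41, against -0.21 over all genes tested. edgeR's quasi-likelihood test called 0 of the 32 at a Benjamini-Hochberg adjusted p under 0.05, where it called 0.0584% of all genes. At an unadjusted p under 0.05 it had 2, Itgb1 and Itga10, both lower, against 10.3% of all genes. DESeq2 called 2, Itgb1 and Itga11, the latter without a count in irradiated constructs, among 445 of all genes, and limma voom called 0. In 10 genes every irradiated library lay below every normal library, against 11.8% of all genes, and in 1 gene, Vcl, every irradiated library lay above, against 3.94%. The 10 lower genes were Itga3, Itga10, Itga11, Itgav, Itgb1, Itgb3, Itgb4, Tln1, Ptk2 and Flna. The scaling matters for these counts. When libraries were scaled by their totals alone, the median over all genes tested moved from -0.21 to 0.14, that of the adhesion genes became -0.05, and the genes without overlap were 4 lower (Itga3, Itga10, Itga11, Itgb4) and 2 higher (Vcl, Tns1), against 8.21% and 5.31% of all genes. Without normal 3 and irradiated 1 the median was -0.41, and without irradiated 2 and irradiated 3 it was -0.82 with 1 irradiated library left.

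In cocultured against normal constructs the estimates spread around 0, with 20 of 32 positive and 12 negative, where 5624 of 11980 genes tested were positive. The median was 0.14, against -0.07 over all genes tested. edgeR called 0 of the 32 and 0% of all genes, and DESeq2, with 84 of all genes called, and limma voom called 0 of the 32. At an unadjusted p under 0.05 there were also 0, against 4.11% of all genes. Zyx was higher without overlap, against 5.66% of all genes, and Flnc, Itgb1, Itgb4 and Tln1 were lower without overlap, against 7.51%. With library totals the median of all genes tested was 0.48 and that of the adhesion genes 0.66, with 11 genes higher without overlap and 0 lower, against 15.4% and 3.58% of all genes. The median was 0.006 without normal 3 and irradiated 1, and -0.02 without cocultured 1.

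Set directly against the cocultured constructs, irradiated constructs had negative estimates in 26 of 32 genes, against 6385 of all 11980 genes tested. The median was -0.66, against -0.10 over all genes tested. This comparison shares its irradiated libraries with the first and its cocultured libraries with the second. edgeR called 0 of the 32 and 0.0334% of all genes. Itga11, Zyx and Actn1 had an unadjusted p under 0.05, all lower in irradiated constructs, against 9.58% of all genes. DESeq2 called 1, Itga11, which had no count in irradiated constructs, among 473 of all genes, and limma voom called 0. In 6 genes (Actn1, Flna, Itga3, Itgb1, Itgb3, Zyx) the irradiated libraries lay below all cocultured ones, against 10.6% of all genes, and 0 lay above, against 3.9%. Over the 3 groups, the irradiated mean was the lowest in 21 of the 32 genes and the cocultured mean the highest in 17. The same order was not counted over all genes, so these counts do not set the adhesion genes apart.

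**Figure D1:**
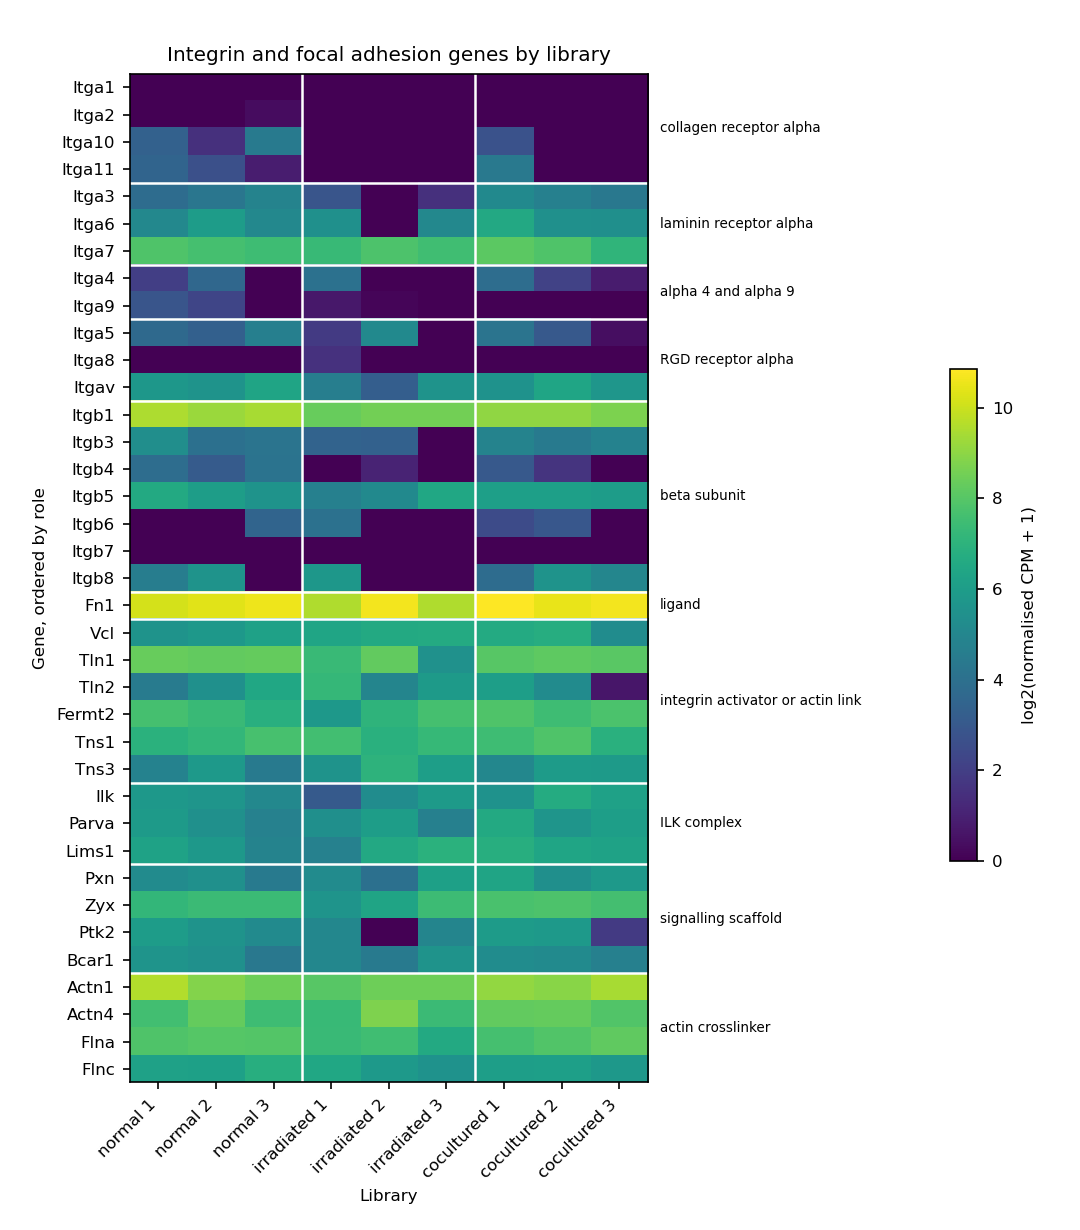
Level of each of the 37 genes (rows, ordered by role) in each of the 9 libraries (columns), as log2(normalised CPM + 1), where colours compare libraries within a row. The rows of Itga10 and Itga11 are at 0 in all 3 irradiated libraries, and the dark cells of Itga6 and Ptk2 mark irradiated 2, where neither had a count.

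Itgb1, the beta 1 chain, had the smallest p of the 32 genes in irradiated against normal constructs. Its level was 741, 599 and 687 normalised CPM in normal constructs 1 to 3, and 321, 368 and 376 in irradiated constructs 1 to 3. In cocultured constructs 1 to 3 it was 533, 532 and 423. The irradiated libraries were the 3 lowest, the normal libraries the 3 highest, and the cocultured ones lay between them with no overlap. The means were 675 ± 71.5, 355 ± 29.7 and 496 ± 63.4 normalised CPM (SD, n = 3 each). Against normal, the log2 fold change was -0.93 (SE 0.28) in irradiated constructs, with an edgeR adjusted p of 0.374 and an unadjusted p of 0.0060. DESeq2 gave -0.85 with an adjusted p of 0.0134. In cocultured constructs it was -0.45 (SE 0.28, edgeR adjusted p of 1.0), and irradiated against cocultured it was -0.48 (SE 0.28, edgeR adjusted p of 0.596). The separation from normal was not seen with library totals. In CPM of all counts in a library, with no TMM factor, Itgb1 stood at 715, 545 and 380 in normal 1 to 3 and at 233, 472 and 467 in irradiated 1 to 3, which overlap. On that scale the log2 fold change was -0.49 in irradiated and 0.11 in cocultured constructs against normal.

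Among the other beta chains, Itgb3, which pairs with alpha v to bind vitronectin and fibronectin, was at 39.8, 14.998 and 17.0 normalised CPM in normal 1 to 3, at 10.0, 9.22 and 0 in irradiated 1 to 3 and at 28.2, 20.4 and 26.9 in cocultured 1 to 3. All irradiated libraries lay below the rest, with a log2 fold change of -1.90 (SE 1.61, edgeR adjusted p of 0.981) against normal and -1.97 (SE 1.61, edgeR adjusted p of 0.861) against cocultured. Itgb4, the partner of alpha 6 in hemidesmosomes, was at 13.6, 7.73 and 16.7 normalised CPM in normal 1 to 3, at 0, 1.13 and 0 in irradiated 1 to 3 and at 7.07, 2.07 and 0 in cocultured 1 to 3. Both groups lay wholly below normal. Its 12 irradiated counts all came from irradiated 2, without which the group had no count, and the log2 fold change was -4.98 (SE 3.07, edgeR adjusted p of 0.721). Cocultured against normal, it was -2.05 (SE 2.70, edgeR adjusted p of 1.0).

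Itgb5, another partner of alpha v, ran from 47.3 to 96.1 normalised CPM in normal, 25.8 to 88.2 in irradiated and 63.3 to 69.1 in cocultured libraries, which overlap. Itgb8, which with alpha v activates latent TGF-beta, had no count in normal 3, irradiated 2 and irradiated 3, and reached 52.2 normalised CPM in irradiated 1. Itgb6 had no count in 5 libraries and at most 15.8 normalised CPM, again in irradiated 1. Itgb7, a leukocyte chain, had no count in any library.

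Among the laminin-binding alpha chains, Itga7, the chain of the main muscle laminin receptor, differed little between groups. It was at 229, 199 and 178 normalised CPM in normal 1 to 3, at 160, 226 and 183 in irradiated 1 to 3 and at 274, 233 and 137 in cocultured 1 to 3. The ranges overlap in every pair of groups. Against normal, the log2 fold change was -0.09 (SE 0.34) in irradiated and 0.09 (SE 0.34) in cocultured constructs, each with an edgeR adjusted p of 1.0. The irradiated estimate was 0.33 with library totals, 0.03 without normal 1 and 0.02 without irradiated 1, and the cocultured one was -0.13 without cocultured 1.

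Itga3, a receptor for several laminins, was at 13.3, 18.4 and 27.6 normalised CPM in normal 1 to 3, at 6.18, 0 and 1.88 in irradiated 1 to 3 and at 35.0, 25.6 and 19.1 in cocultured 1 to 3. The irradiated libraries lay below all others, and they did so with library totals too. Its log2 fold change was -2.89 (SE 1.74, edgeR adjusted p of 0.693) against normal and -3.31 (SE 1.77, edgeR adjusted p of 0.523) against cocultured. Without irradiated 1 these were -4.38 and -4.81. Itga6, also a laminin receptor chain, had no count in irradiated 2 but 42.6 and 32.7 normalised CPM in irradiated 1 and irradiated 3, within the normal range of 32.6 to 63.6.

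Of the chains that recognise the RGD motif, Itgav was at 52.6, 46.6 and 80.4 normalised CPM in normal 1 to 3, at 24.3, 8.46 and 46.2 in irradiated 1 to 3 and at 45.7, 82.9 and 50.3 in cocultured 1 to 3. Irradiated 3 and normal 2 nearly met, at 46.2 and 46.6, and the cocultured range covers that of the normal libraries. Against normal, the log2 fold change was -1.19 (SE 0.70, edgeR adjusted p of 0.677) in irradiated and -0.005 (SE 0.69, edgeR adjusted p of 1.0) in cocultured constructs, the second with a sign that turned in 9 of 18 alternatives. Without irradiated 3 the first was -1.88, and without irradiated 2 it was -0.76.

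Itga5, the fibronectin receptor chain, depended on single libraries. It was at 12.1, 9.09 and 24.9 normalised CPM in normal 1 to 3, at 2.56, 34.9 and 0 in irradiated 1 to 3 and at 16.9, 7.14 and 0.339 in cocultured 1 to 3. Irradiated 2 held 371 of the 383 irradiated counts. The log2 fold change of -0.30 (SE 2.11) in irradiated constructs became -3.59 without irradiated 2, 0.29 without irradiated 3, 0.19 without irradiated 1, 0.25 without normal 3 and 0.46 with library totals. In cocultured constructs it was -0.92 (SE 2.13), -2.03 without cocultured 1 and -0.35 without cocultured 3, and the edgeR adjusted p was 1.0 for both groups.

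The collagen-binding alpha chains were near or at the limit of detection. Itga1 had no count anywhere and Itga2 had 1 count, in normal 3. Itga10 was at 9.45, 1.82 and 21.3 normalised CPM in normal 1 to 3, with 132 counts in all, and had no count in the irradiated libraries. Set against a floor of 3 counts, with counts pooled over each group, it was at least 81.2-fold lower in irradiated constructs (edgeR unadjusted p of 0.0353, adjusted p of 0.483). Of the pooled normal counts, 78 came from normal 3 and 8 from normal 2, so the bound need not hold for each library. In cocultured constructs all 53 counts came from cocultured 1. Itga11, which binds fibrillar collagen, was at 10.3, 5.23 and 0.821 normalised CPM in normal 1 to 3, with 76 counts in all. It had no count in the irradiated libraries, a level at least 46.8-fold lower when counts are pooled over each group. All 184 of its cocultured counts came from cocultured 1, so the values of 0 were shared by irradiated 1 to 3, cocultured 2 and cocultured 3. Against the pooled cocultured counts the irradiated level was at least 15.1-fold lower for Itga10 and at least 52.5-fold lower for Itga11. Both bounds rest on cocultured 1 alone, and the irradiated and cocultured libraries overlapped at 0. DESeq2 called Itga11 in both comparisons of irradiated constructs, with log2 fold changes of -21.9 against normal and -22.1 against cocultured. These estimates rest on a group without any count, and Itga11 passed the count filter only through libraries of the other groups. The edgeR adjusted p was 0.483 and 0.493. The share of genes at 0 in irradiated 2 and irradiated 3 stands beside these values, and its part in them was not tested.

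Itga4 and Itga9, chains that bind fibronectin segments and VCAM-type ligands, and Itga8 were sparse. Itga4 ran from 0 to 11.4 normalised CPM in normal, 0 to 15.3 in irradiated and 0.791 to 13.8 in cocultured libraries. Itga9 had 48 counts over the normal libraries, 4 over the irradiated and 0 over the cocultured ones, a pooled level at least 34.5-fold lower in the last. Its normal counts came from normal 1 and normal 2. Itga8 had 9 counts, all in irradiated 1.

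**Figure D2:**
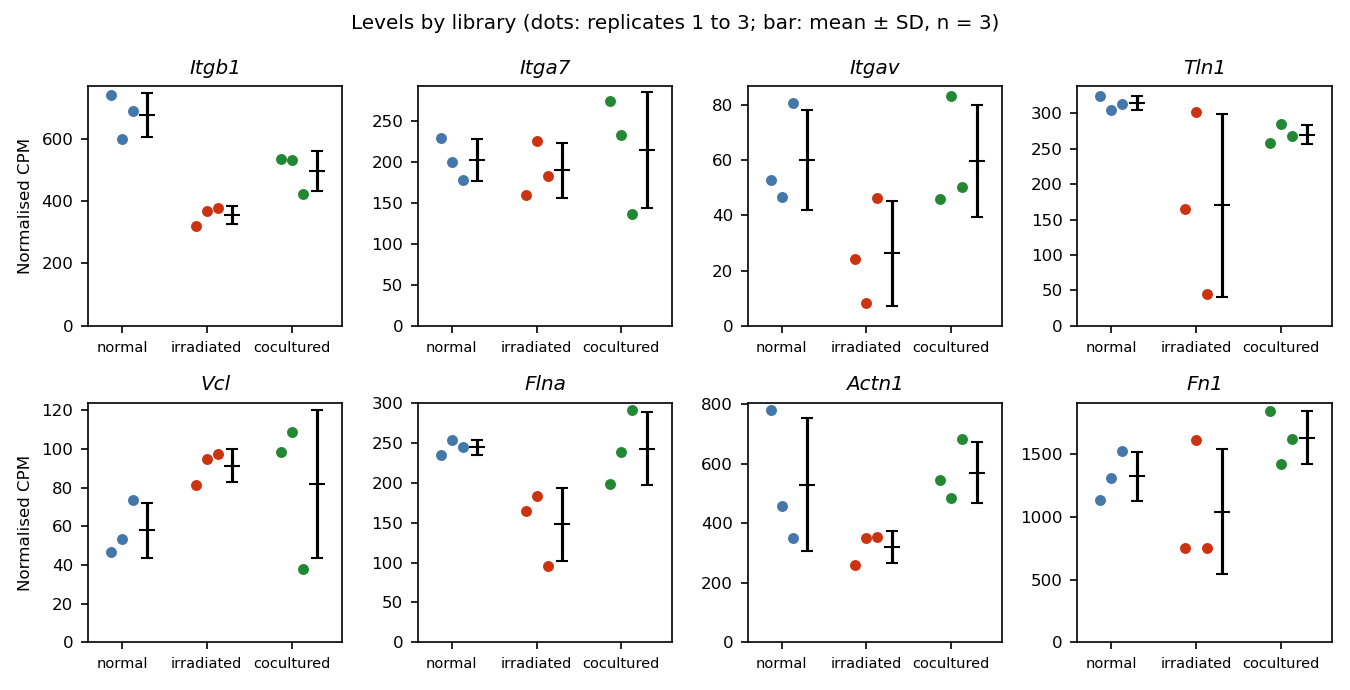
Normalised CPM of 8 genes by library, with dots for replicates 1 to 3 of each group and bars for the mean ± SD (n = 3). Itgb1 shows 3 groups that do not overlap, and Vcl shows the irradiated dots above the normal dots. Tln1 and Flna show a tight normal group above the irradiated one, with irradiated 2 just below normal for Tln1. With library totals, irradiated and normal libraries overlapped for Itgb1, Tln1 and Flna.

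Fibronectin, which cells assemble through alpha 5 beta 1 and which was the one matrix ligand on the list, overlapped between groups. Fn1 was at 1139.7, 1309 and 1527 normalised CPM in normal 1 to 3, at 753, 1616 and 755 in irradiated 1 to 3 and at 1848, 1426 and 1621 in cocultured 1 to 3. Irradiated 2 was above all normal libraries and the other irradiated libraries below them. Against normal, Fn1 had a log2 fold change of -0.35 (SE 0.36) in irradiated and 0.30 (SE 0.36) in cocultured constructs, each with an edgeR adjusted p of 1.0. The first was -0.81 without irradiated 2 and 0.18 with library totals, and the second 0.89 with library totals.

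Of the proteins that activate integrins or link them to actin, Tln1, the talin that switches integrins on, had the smallest spread between normal libraries relative to its mean among the 32 tested genes. It was at 325, 305 and 314 normalised CPM in normal 1 to 3, at 164, 302 and 44.6 in irradiated 1 to 3 and at 258, 285 and 268 in cocultured 1 to 3. Irradiated 2 (302) lay just below the lowest normal library (305), and irradiated 3 was far below. The log2 fold change was -0.88 (SE 0.50, edgeR adjusted p of 0.633) in irradiated constructs, -1.59 without irradiated 2 and -0.43 without irradiated 3. In cocultured constructs, which lay wholly below normal, it was -0.22 (SE 0.50, edgeR adjusted p of 1.0), and 0.33 with library totals.

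Vcl, which encodes vinculin, a protein recruited to talin under tension, was the one gene above normal in all irradiated libraries. It was at 46.6, 53.6 and 73.9 normalised CPM in normal 1 to 3, at 81.6, 94.8 and 97.7 in irradiated 1 to 3 and at 98.5, 109 and 38.1 in cocultured 1 to 3. Cocultured 3 was the lowest of all 9 libraries and cocultured 1 and 2 the highest. The log2 fold change against normal was 0.65 (SE 0.49, edgeR adjusted p of 0.899) in irradiated and 0.50 (SE 0.49, edgeR adjusted p of 1.0) in cocultured constructs. The irradiated estimate stayed positive in all 18 alternatives, from 0.49 to 1.16, and the groups did not overlap with library totals either, but no alternative gave an adjusted p below 0.391. The cocultured estimate was 0.24 without cocultured 2, 0.84 without cocultured 3 and 1.12 with library totals.

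The remaining genes of this class overlapped between irradiated and normal constructs. Fermt2, kindlin-2, ran from 115 to 202 normalised CPM in normal, 54.1 to 198 in irradiated and 179 to 231 in cocultured libraries. Tns1, a tensin, ran from 122 to 203, 118 to 189 and 117 to 234 in the same order. Tns3, another tensin, was at 46.4, 129 and 67.5 normalised CPM in irradiated 1 to 3 against 21.3 to 57.0 in normal libraries. Tln2, the second talin, ran from 22.2 to 87.3 in normal libraries, and its range was 29.6 to 149 in irradiated and 0.565 to 66.0 in cocultured ones.

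The 3 genes of the ILK complex, a scaffold at the beta tail made of ILK, parvin and PINCH, all had positive estimates in cocultured constructs, and all overlapped with normal. Ilk was at 54.4, 49.8 and 32.3 normalised CPM in normal 1 to 3, at 7.45, 37.7 and 59.0 in irradiated 1 to 3 and at 45.6, 101 and 72.0 in cocultured 1 to 3. Irradiated 1 was far below the rest. Ilk had a log2 fold change of -0.39 (SE 0.73) in irradiated and 0.68 (SE 0.73) in cocultured constructs, each with an edgeR adjusted p of 1.0. The first was 0.09 without irradiated 1, -1.003 without irradiated 3 and 0.13 with library totals, and the second 0.37 without cocultured 2 and 1.17 with library totals. Parva, alpha-parvin, averaged 42.4 ± 16.2, 43.9 ± 19.6 and 70.3 ± 22.8 normalised CPM in the normal, the irradiated and the cocultured group (SD, n = 3 each). Lims1, which encodes PINCH-1, averaged 52.3 ± 23.5, 80.6 ± 49.1 and 89.5 ± 19.9.

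Among the signalling scaffolds, Ptk2, which encodes focal adhesion kinase, was at 62.0, 46.1 and 35.8 normalised CPM in normal 1 to 3, at 31.3, 0 and 30.0 in irradiated 1 to 3 and at 61.4, 56.3 and 2.6 in cocultured 1 to 3. It had no count in irradiated 2, and the log2 fold change of -1.23 (SE 1.46, edgeR adjusted p of 1.0) became -0.65 without that library. In cocultured constructs it was -0.26 (SE 1.44, edgeR adjusted p of 1.0), 0.30 without cocultured 3 and 0.24 with library totals.

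Zyx, which encodes zyxin, a protein of mature adhesions and stress fibres, was at 144, 167 and 167 normalised CPM in normal 1 to 3, at 48.3, 80.4 and 171 in irradiated 1 to 3 and at 211, 225 and 193 in cocultured 1 to 3. All cocultured libraries lay above all normal ones, while irradiated 3 reached the normal level and the other irradiated libraries did not. Zyx had a log2 fold change of 0.40 (SE 0.42, edgeR adjusted p of 1.0) for cocultured against normal and -1.07 (SE 0.43, edgeR adjusted p of 0.493) for irradiated against cocultured. The second was -1.70 without irradiated 3, and -2.12 where irradiated 1 alone stood for its group. Pxn, paxillin, ran from 21.1 to 42.7 normalised CPM in normal, 14.95 to 71.3 in irradiated and 41.3 to 80.1 in cocultured libraries, and Bcar1, the adaptor p130Cas, from 19.2 to 48.7, 21.0 to 47.0 and 25.8 to 37.5.

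Among the actin crosslinkers, Flna, filamin A, was at 235, 254 and 244 normalised CPM in normal 1 to 3, at 165, 183 and 96.2 in irradiated 1 to 3 and at 199, 238 and 291 in cocultured 1 to 3. The irradiated libraries were the 3 lowest. For Flna the log2 fold change was -0.72 (SE 0.34, edgeR unadjusted p of 0.0501, adjusted p of 0.483) against normal and -0.71 (SE 0.33, edgeR adjusted p of 0.493) against cocultured, and with library totals the first was -0.33 and the groups overlapped. Actn1, alpha-actinin 1, was at 780.5, 459.7 and 350.3 normalised CPM in normal 1 to 3, at 259, 350.3 and 354 in irradiated 1 to 3 and at 546, 484 and 683 in cocultured 1 to 3. It overlapped between irradiated and normal and not between irradiated and cocultured, where the log2 fold change was -0.83 (SE 0.35, edgeR unadjusted p of 0.0333, adjusted p of 0.493).

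Flnc, the muscle filamin of Z-discs, ran from 70.2 to 111 normalised CPM in normal, 45.2 to 87.5 in irradiated and 54.1 to 69.3 in cocultured libraries. The cocultured libraries lay below normal, with a log2 fold change of -0.42 (SE 0.47, edgeR adjusted p of 1.0), -0.17 without normal 3 and 0.21 with library totals. Actn4, the non-muscle alpha-actinin 4, ran from 180.3 to 312 in normal, 159.7 to 433 in irradiated and 240.1 to 309 in cocultured libraries, the highest in irradiated 2.

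**Figure D3:**
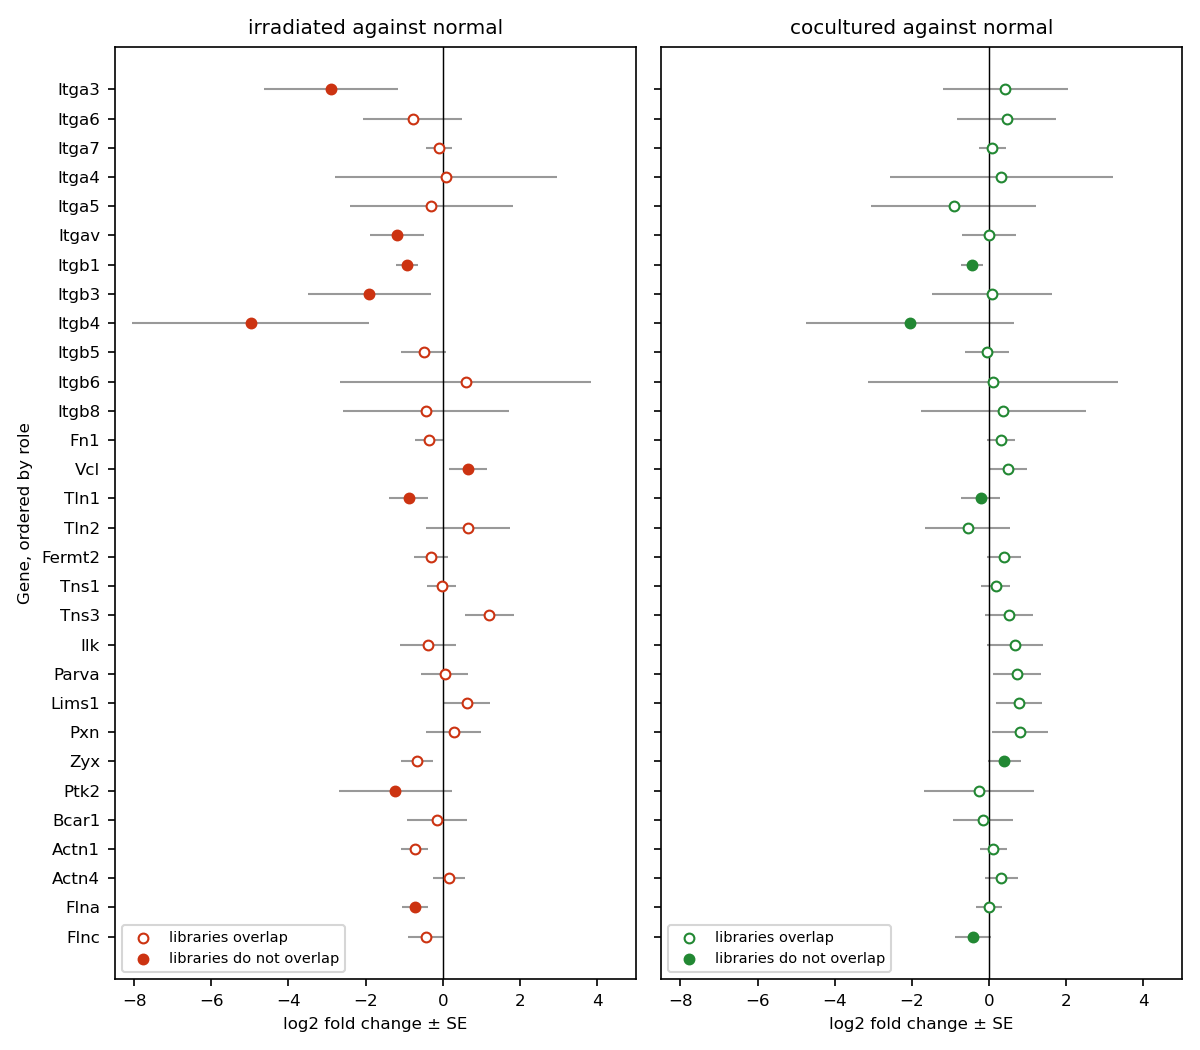
edgeR log2 fold change ± SE of 30 tested genes (rows, ordered by role) against normal, for irradiated (left) and cocultured (right) constructs, with filled points where libraries did not overlap. Itga10 and Itga11, without counts in irradiated constructs, are not drawn, and the widest bars belong to sparse genes such as Itgb4 and Itgb6.

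Because the TMM factors ran from 0.556 to 1.29, counts were also set against Itgb1 counts of the same library, a ratio that no scaling touches. The 9 genes set against it were taken after their values had been seen, so the ratios are a description without a test, and all share the Itgb1 denominator. With TMM factors Itgb1 was itself lower than normal in irradiated (-0.93) and cocultured (-0.45) constructs. A lower denominator raises every ratio, so the counts of higher and lower ratios below cannot show a rise of the other genes. Such ratios were not computed over all genes. Vcl counts were 0.0630, 0.0895 and 0.108 per Itgb1 count in normal 1 to 3, 0.254, 0.257 and 0.260 in irradiated 1 to 3 and 0.185, 0.205 and 0.0901 in cocultured 1 to 3. The irradiated ratios were nearly equal and lay above all the others. Itga7 counts were 0.309, 0.333 and 0.259 per Itgb1 count in normal 1 to 3, 0.497, 0.614 and 0.486 in irradiated 1 to 3 and 0.514, 0.438 and 0.324 in cocultured 1 to 3. Of 9 ratios, 2 (Vcl, Itga7) were higher without overlap in irradiated than in normal constructs and 0 lower. In cocultured constructs 3 were higher without overlap (Fn1, Zyx, Fermt2) and 0 lower. Fn1 counts were 2.68 to 3.84 per Itgb1 count there, against 1.54 to 2.22 in normal constructs. A ratio shows that the genes differed unequally, and not which of them differed.

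**Figure D4:**
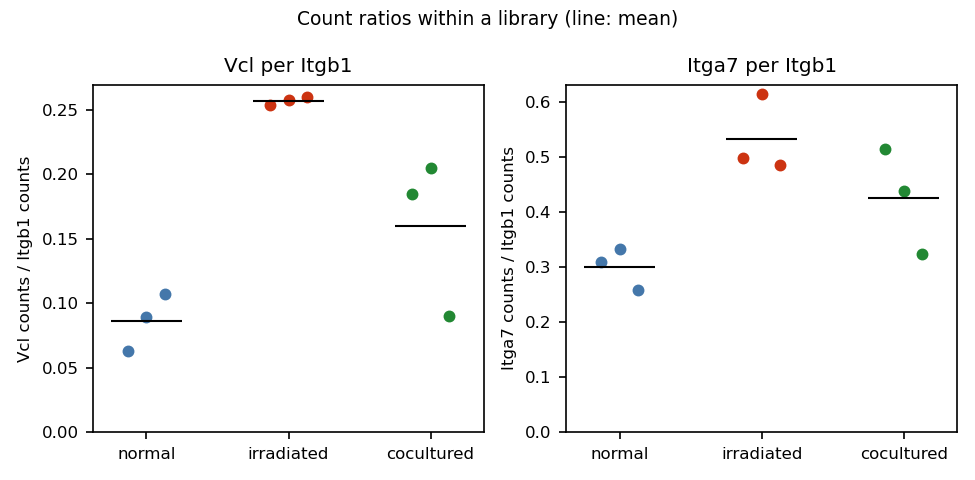
Counts of Vcl (left) and Itga7 (right) per Itgb1 count in the same library, with a dot per library and a line at the group mean. The 3 irradiated dots of Vcl lie between 0.254 and 0.260, above every normal dot, of which the highest is 0.108.

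The DNA before the start sites was read for the genes with a RefSeq promoter window (GRCm38.p6, 250 bases before to 50 after the start), which matched 28 of the 37 by symbol with 35 windows. The sequences of Itgb1, Flna and Vcl are shown as examples of genes that did not overlap between irradiated and normal constructs. With TMM factors, irradiated estimates were lower for Itgb1 and Flna and higher for Vcl, and edgeR called none of them. With library totals, Itgb1 and Flna overlapped normal. The genes shown and the motifs were chosen after the values had been seen. Other genes without overlap, such as Tln1 and Itgav, are not shown. Itgb1 lies at chr8:128685404-128685703 (plus strand), Vcl at chr14:20929148-20929447 (plus strand) and Flna at chrX:74246485-74246784 (minus strand). Each is written from 5' to 3' along the gene, and capitals mark the CArG box, to which serum response factor binds, and the MCAT core, to which TEAD factors, the partners of YAP, bind.
Itgb1: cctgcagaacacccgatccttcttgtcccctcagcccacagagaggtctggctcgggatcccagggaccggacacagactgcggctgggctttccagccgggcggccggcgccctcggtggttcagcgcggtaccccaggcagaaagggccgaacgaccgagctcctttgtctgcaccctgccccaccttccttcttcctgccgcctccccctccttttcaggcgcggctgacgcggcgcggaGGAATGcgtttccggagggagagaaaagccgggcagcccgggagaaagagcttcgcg
Vcl: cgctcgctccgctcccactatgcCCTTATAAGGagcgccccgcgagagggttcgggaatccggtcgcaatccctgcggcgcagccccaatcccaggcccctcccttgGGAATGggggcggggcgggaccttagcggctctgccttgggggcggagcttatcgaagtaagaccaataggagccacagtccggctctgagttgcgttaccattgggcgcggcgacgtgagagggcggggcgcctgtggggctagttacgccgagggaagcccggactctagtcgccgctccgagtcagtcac
Flna: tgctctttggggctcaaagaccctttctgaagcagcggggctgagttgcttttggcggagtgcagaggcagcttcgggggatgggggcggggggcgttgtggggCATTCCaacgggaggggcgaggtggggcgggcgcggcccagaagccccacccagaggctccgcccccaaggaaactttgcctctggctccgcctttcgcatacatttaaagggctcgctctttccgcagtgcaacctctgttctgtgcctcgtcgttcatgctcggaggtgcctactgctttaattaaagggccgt
The Vcl window held a CArG box, which reads as the box on both strands, and an MCAT core on the minus strand, apart from each other. Itgb1 held an MCAT core on the minus strand and Flna one on the plus strand, and neither held a CArG box. Over both strands, the CArG box was in 3 of 35 windows (8.57%; Fermt2, Itgb6 and Vcl), against 1.63% of all 32851 windows. The MCAT core, CATTCC, was in 7 (20.0% against 14.7%). The GC box of Sp1-type factors, GGGCGG, was in 22 (62.9% against 35.7%). The myogenic E-box, CAGCTG, was in 5 (14.3% against 16.3%), and the AP-1 site, TGANTCA, in 4 (11.4% against 7.81%). The p53 half-site was in 1 (2.86% against 8.36%). Motifs were searched separately, so they may overlap each other in a window, and several windows can belong to 1 gene. A match describes letters in this window and says nothing of binding.

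Other genes of the same machinery were described as lists, with 0 genes called in any of them in any comparison by edgeR. In irradiated against normal constructs, 25 of 40 tested adaptor and signalling genes were negative (median -0.29), 2 were higher and 4 lower at an unadjusted p under 0.05, and 3 were higher and 5 lower without overlap. Over all genes tested, 6973 of 11980 were negative. The shares were 10.3% at that p in either direction, and 3.94% higher and 11.8% lower without overlap. The counts of the other lists in this comparison stand against the same shares. Csrp1, a LIM protein that binds alpha-actinin and zyxin, was at 133, 174 and 123 normalised CPM in normal 1 to 3 and at 74.7, 20.5 and 18.4 in irradiated 1 to 3 (log2 fold change -1.92, SE 0.54, edgeR adjusted p of 0.295). Parvb, beta-parvin, had a log2 fold change of 1.41 (SE 0.57, edgeR adjusted p of 0.483). Matrix ligands of integrins were negative in 17 of 26 (median -0.53), with 2 higher and 7 lower at an unadjusted p under 0.05 and 3 higher and 7 lower without overlap. Lama4, the alpha 4 laminin chain, was at 185, 182 and 212 normalised CPM in normal 1 to 3 and at 41.3, 45.7 and 87.3 in irradiated 1 to 3 (log2 fold change -1.73, SE 0.38, edgeR adjusted p of 0.146). Tnc, tenascin C, had a log2 fold change of -1.76 (SE 0.49, edgeR adjusted p of 0.287). The 2 ligands higher at an unadjusted p under 0.05, named after their values were seen, were Col4a1, a collagen IV chain (log2 fold change 1.27, SE 0.36, edgeR adjusted p of 0.291), and Vcam1, a ligand of alpha 4 integrins (1.70, SE 0.51, edgeR adjusted p of 0.350).

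Targets of SRF and YAP, transcription regulators that respond to tension and actin, were negative in 10 of 15 (median -0.65), with 0 higher and 4 lower at an unadjusted p under 0.05, and 5 lower without overlap, against 10.3% and 11.8% of all genes. Axl, a receptor tyrosine kinase gene and YAP target, was at 205, 276 and 308 normalised CPM in normal 1 to 3 and at 64.7, 76.3 and 67.2 in irradiated 1 to 3 (log2 fold change -1.92, SE 0.33, edgeR adjusted p of 0.0643). Ccn2, a matricellular integrin ligand and YAP target that stands on both lists, was at 233, 195 and 105 against 15.5, 62.3 and 64.6 (log2 fold change -1.90, SE 0.52, edgeR adjusted p of 0.267). Tpm4, a non-muscle tropomyosin, had a log2 fold change of -0.94 (SE 0.34, edgeR adjusted p of 0.483). The dystrophin complex, the other link from muscle cytoskeleton to laminin, was negative in 8 of 14 (median -0.12), with 0 genes at an unadjusted p under 0.05, against 10.3% of all genes, and 0 without overlap in either direction.

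In cocultured against normal constructs the list medians were 0.07 for adaptors, 0.05 for ligands, -0.32 for the dystrophin complex and -0.09 for SRF and YAP targets. Ankrd1, a YAP target induced by stretch in muscle, was at 697, 581 and 440.3 normalised CPM in cocultured 1 to 3 and at 359, 355 and 141 in normal 1 to 3 (log2 fold change 1.01, SE 0.44, edgeR adjusted p of 1.0). Kank2, which binds talin, had a log2 fold change of 1.28 (SE 0.46), Crk, an adaptor of paxillin and p130Cas, 1.83 (SE 0.98), and its relative Crkl -1.47 (SE 0.70), all with an edgeR adjusted p of 1.0. Mfge8, an RGD ligand of alpha v integrins, had -1.14 (SE 0.43), Tnc -0.79 (SE 0.48) and Col4a1 0.60 (SE 0.35), again with an edgeR adjusted p of 1.0. Irradiated against cocultured, the medians were -0.27, -0.33, 0.14 and -0.29 in the same order. Ankrd1 was at 129, 365 and 286 normalised CPM in irradiated 1 to 3, which overlaps its normal range. Axl (-1.66, SE 0.33, edgeR adjusted p of 0.165), Ccn2 (-2.22, SE 0.52, edgeR adjusted p of 0.255) and Ankrd1 (-1.14, SE 0.44, edgeR adjusted p of 0.493) were lower in irradiated constructs without overlap. So were Lamc1, the gamma 1 laminin chain (-1.82, SE 0.56), Lama4 (-1.19, SE 0.38), Csrp1 (-1.48, SE 0.54), Rap1b, a small GTPase that acts on talin (-0.84, SE 0.45), and Git2 (-4.01, SE 1.90), with edgeR adjusted p-values of 0.477 to 0.524.

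**Figure D5:**
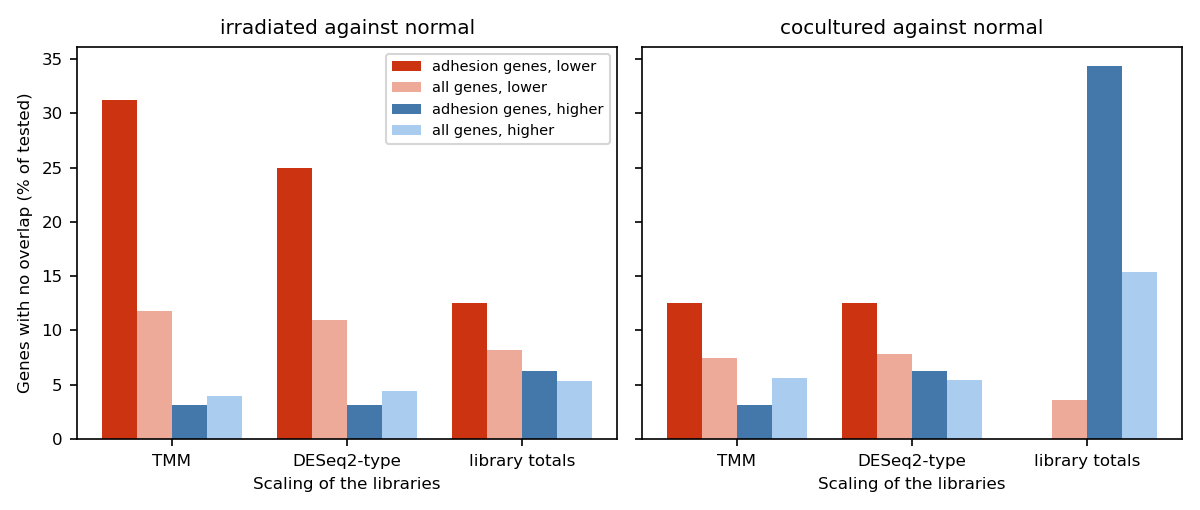
Percentage of tested genes whose groups did not overlap, for the 32 adhesion genes (dark) and all 11980 genes (pale), lower (red) or higher (blue) than normal, under 3 ways of scaling the libraries. With library totals the share of adhesion genes lower in irradiated constructs is 4 of 32, against 10 of 32 with TMM factors, and 0 of 32 are lower in cocultured constructs.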

How the data were processed

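Libraries were made from total RNA with a 3' end kit primed by oligo-dT (QuantSeq FWD) and sequenced as single-end reads, per the labels' protocols, which name no molecular identifiers. The submitters' processing notes name FastQC, STAR, HTSeq, GRCm39 and mm39, without versions or roles, while annotation and strand setting were not given in the sources used here. Genes that overlap or resemble each other may therefore share reads. The authors deposited unnormalized counts, in whole numbers, for each gene symbol. Samples were grouped by their titles, and each file was assigned through the series' own file record. The numbers in the files' column headers are 1 above those of the titles, which are the replicate numbers used here, and the normal columns are headed Ctrl_co. The labels give 3 libraries a group, all used, while the series design text counts fewer irradiated and normal samples. Up to 2 constructs shared a dish, so a p-value reflects the spread among these libraries, which may be partly technical.

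One model was fitted to all 9 libraries with edgeR 4.0.16 in R 4.3.3 (filterByExpr, TMM factors, glmQLFit, glmQLFTest, group as the term), with Benjamini-Hochberg adjustment over 11980 genes and calls under 0.05. The common biological coefficient of variation was 1.32. The approximate standard error of a log2 fold change was taken from its F statistic (the change over the root of F). DESeq2 1.42.0, limma 3.58.1 (voom), other scalings, filters and subsets of libraries were alternatives. The test was also run on counts simulated from the mean levels of these genes, with no libraries standing apart. That run cannot show how the test behaves on these 9 libraries. Floors of 3 counts reflect counting error alone, with reads treated as independent. They pool the libraries of a group, so a bound need not hold for each library. A group did not overlap when all its 3 libraries lay on 1 side of the other group.

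The genes and the gene lists were chosen with earlier results of these data known. A fold change was printed for genes called or not overlapping with a mean of at least 10 normalised CPM in either group, and for 8 set genes (Itgb1, Itga5, Itga7, Itgav, Fn1, Vcl, Ptk2, Ilk) against normal. From each of 4 lists of other adhesion genes up to 3 a comparison were named by the smallest adjusted p among those not overlapping. Some genes that this rule names are not reported here. For Itga9 and Itga11, below that level, a bound is given because a group had no count. Promoters are from RefSeq tables of GRCm38.p6, another build than the notes name, matched by symbol, and no coordinates of the counted genes are given.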

Additional observations from a re-analysis of the deposited data

How the results depend on the processing

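Depth and spread limit these results: 5 of the 37 genes were too sparse to test. Over 18 alternatives, 0 adhesion genes were called in cocultured against normal constructs. DESeq2 called 2 in irradiated against normal and 1 in irradiated against cocultured constructs. Both sets include Itga11, which had no count in irradiated constructs. Irradiated 2 and irradiated 3 were a pair of libraries doubted after the data were seen. Without them the lone irradiated library is assumed to vary like the other groups, so calls of adhesion genes in irradiated constructs are not counted for that setting. The other alternatives called 0. The causes were not tested.

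In irradiated against normal constructs, all genes called were 445 with DESeq2, 25 with limma voom, 130 without a filter, 0 with only the 6 libraries compared, 20 without normal 3 and irradiated 1, 190 without irradiated 2 and 3, and 6 to 147 leaving out 1 library. In cocultured against normal they were 84 with DESeq2, 52 without a filter, 1 without normal 3 and irradiated 1, 96 without irradiated 2 and 3, and 0 leaving out any 1 library. In irradiated against cocultured they were 473 with DESeq2, 105 with limma voom, 9 with library totals, 153 without a filter, 0 with the 6 libraries, 21 without normal 3 and irradiated 1, 449 without irradiated 2 and 3, and 1 to 97 leaving out 1 library. The most called with 1 library left out, 147 and 97, came without irradiated 1.

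The median log2 fold change of the adhesion genes was, in irradiated against normal, -0.62 with limma voom, -0.048 with library totals, -0.82 without irradiated 2 and 3 and -0.59 to -0.35 leaving out 1 library. In cocultured against normal it was 0.66 with library totals, 0.00600 without normal 3 and irradiated 1 and -0.017 to 0.33 leaving out 1 library. In irradiated against cocultured it was -0.83 with limma voom, -0.53 without a filter and -0.66 to -0.40 leaving out 1 library.

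With library totals, the signs turned for Fn1 (0.18), Ilk (0.13), Itga5 (0.46) and Itga7 (0.33) in irradiated constructs, and for Flnc (0.21), Itgav (0.63), Itgb1 (0.11), Ptk2 (0.24) and Tln1 (0.33) in cocultured ones. Leaving out 1 library gave Ilk -1.003 to 0.090, Itga5 -3.59 to 0.29 and Itga7 -0.24 to 0.033 in irradiated constructs, and Itga7 -0.13 to 0.33, Itgav -0.31 to 0.26 and Ptk2 -0.70 to 0.30 in cocultured ones. Without normal 3 and irradiated 1, Itga5 was 0.73 in irradiated and Itgav 0.26 in cocultured constructs. Itgav was also 0.037 with limma voom, 0.00443 without a filter and 0.00212 without irradiated 2 and 3.

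Same-numbered libraries of different groups did not deviate together (correlations -0.086 to 0.052), so the numbers were not taken to pair the samples. With the replicate number as a block, all genes called were 23, 0 and 12 in the 3 comparisons in the order above, 0 adhesion genes were called in each, their median in irradiated against normal was -0.72, and Itgav in cocultured constructs was 0.11.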
